A study of Mus musculus with 6 samples.

Results

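The death receptors and the signalling complex they assemble were followed in IEC 4.1, a mouse line labelled as intestinal epithelium, with and without interferon-gamma. The set held 8 genes taken by symbol from the 14701 genes of each table: the receptors Fas, Tnfrsf1a and Tnfrsf10b, the ligand Tnfsf10, the adaptor Fadd, the initiator caspase Casp8, its inhibitor Cflar and the kinase Ripk1. All 8 had a row in all 6 tables. The cytokine was given at 10 ng/ml over 6 h to 3 samples (replicates 1, 2 and 4), and 3 control samples (replicates 2, 3 and 4) received none. Both groups were grown to 80% confluence, and neither carries a genetic change according to the labels. RNA of whole cultures was sequenced, so a change in the number of expressing cells and a change in RNA per cell cannot be told apart.

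Death receptors are members of the TNF receptor superfamily that carry a death domain in the cytoplasm. When a ligand of the TNF family binds, Fas and the TRAIL receptor Tnfrsf10b recruit Fadd, which brings in caspase-8 and starts apoptosis, while the TNF receptor Tnfrsf1a first builds a complex around Tradd and Ripk1 that leads to NF-kappaB. Cflar, which encodes c-FLIP, resembles caspase-8 but lacks its catalytic activity and sets how much caspase-8 is activated. In the intestine these receptors are known for their part in the shedding and killing of epithelial cells during inflammation, and interferon-gamma is known to sensitise several cell types to Fas and TNF.

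The start-site regions of the members that hold a GAS match are shown first, because the GAS motif (gamma-activated site) is a known promoter element of genes that respond to interferon-gamma. The motif was searched as TTCNNNGAA, which reads the same on both strands, and the core of the interferon-stimulated response element (ISRE), a second such element, as GAAANNGAAA on both strands. The windows ran from 250 bases before to 50 bases after a RefSeq start site on GRCm38.p6, 300 bases each. Of the 8 members, 7 had a window, and Ripk1 had 2. These need not be the outermost RefSeq starts. The start sites used for Fas (34290659), Casp8 (58802502), Cflar (58711491) and the first of Ripk1 (34002363) lie inside the gene spans given below. No other start site of the members was searched. Tnfrsf10b was not analysed for motifs. A GAS match lay in the windows of Fas, Tnfrsf1a and Ripk1, all written below on the plus strand with the match in capitals.
Fas, chr19:34290409-34290658, the 250 bases before the start site: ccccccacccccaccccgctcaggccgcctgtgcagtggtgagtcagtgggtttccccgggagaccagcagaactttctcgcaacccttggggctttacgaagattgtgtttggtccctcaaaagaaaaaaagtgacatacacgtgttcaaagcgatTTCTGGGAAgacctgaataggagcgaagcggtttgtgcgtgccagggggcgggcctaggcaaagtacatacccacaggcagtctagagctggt
Tnfrsf1a, chr6:125349473-125349497, the match and its flanks: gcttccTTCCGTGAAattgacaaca
Ripk1, chr13:34002707-34002873, the 167 bases before its second start site: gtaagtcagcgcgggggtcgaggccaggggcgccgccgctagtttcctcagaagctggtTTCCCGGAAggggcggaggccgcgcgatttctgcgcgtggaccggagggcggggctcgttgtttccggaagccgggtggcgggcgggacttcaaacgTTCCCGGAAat

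The Fas match began 93 bases before the start site and lay outside every exon of Fas annotated in GENCODE M21. Exons of other genes were not checked. The Tnfrsf1a match began 244 bases before the RefSeq start site, inside the first exon of the transcript Tnfrsf1a-203, which starts further upstream. Ripk1 held the same 9-letter match at 2 places before its second start site, from 108 and from 11 bases upstream. The window of its first start site held none. The downstream copy overlapped the ISRE core gaaatcgaaa, written here in lower case, which crossed that start site. The windows of Tnfsf10, Fadd and Casp8 held neither motif, and Cflar held the ISRE core after its start site, from base 7. Across all 32851 windows 8.3% held the GAS letters and 3.44% the ISRE core. Of 9159 tested genes with a window 8.39% held GAS and 3.78% the ISRE core, against 20.8% and 22.8% of the 337 genes that rose at least 2-fold. These matches are letters in a window and were not tested as binding sites.

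**Figure D1:**
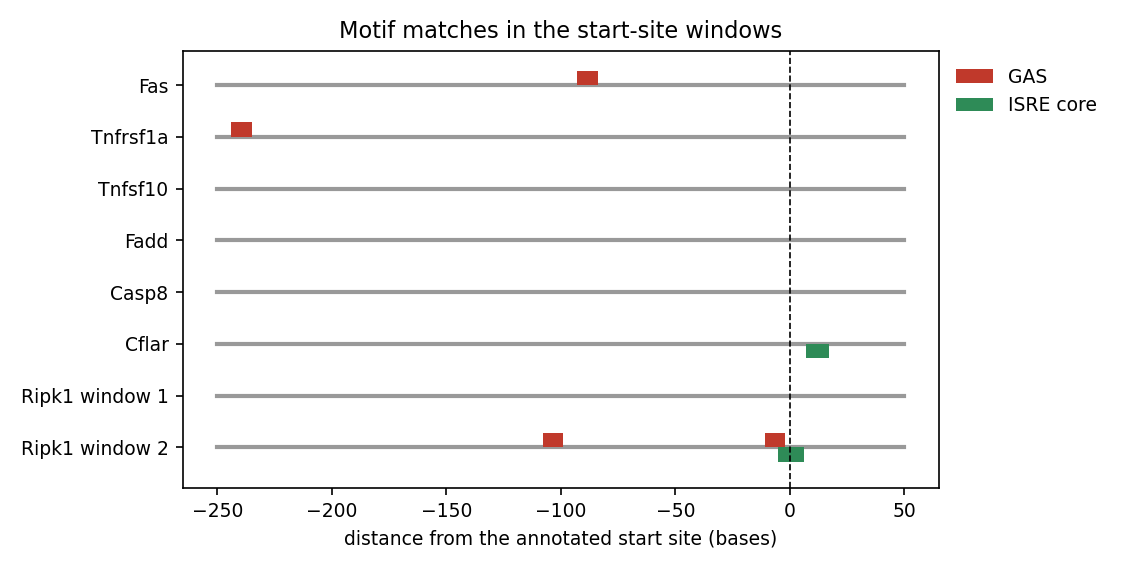
Motif matches in the start-site windows of the 7 members that had one. The x axis is the distance from the annotated start site in bases, each line is a window, and boxes mark GAS and ISRE core matches. GAS boxes appear for Fas, Tnfrsf1a and the second window of Ripk1.

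The libraries were even in depth, with 17490689 to 18678543 estimated counts. Of the defining epithelial markers, 8 of 12 had a row, all below 1 TPM in every library (highest Krt8 at 0.58 TPM), so the labelled epithelial identity is not seen in these markers. Mesenchymal markers, 8 of 9 with a row, summed to 3425 to 3612 TPM in treated libraries and 3284 to 3461 TPM in controls, most of it Vim. Of these 8 genes, 5 lay lower in every treated library than in any control (Col1a1, Col1a2, Col3a1, Pdgfra and Pdgfrb), Vim and Dcn lay higher, and Lum overlapped. Col1a1 was at 314 to 378 TPM in treated libraries and 462 to 489 TPM in controls, and Vim at 2826 to 2906 TPM in treated libraries and 2415 to 2572 TPM in controls. Leukocyte markers, 4 of 9 with a row, summed to 23.6 to 24.5 TPM in treated libraries and 26.8 to 31.7 TPM in controls. Most of it was Cd14, with Cd68 at 2.1 to 2.97 TPM in treated libraries and 2.37 to 3.2 TPM in controls. Endothelial markers stayed at 0.27 TPM or less in sum. The leukocyte sum did not overlap between the groups. The part of these mesenchymal and leukocyte genes in the results was not tested. Each table lists only genes with a count in at least 1 control, so genes without any control count were not analysed here.

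With interferon-gamma 5 of the 8 members rose and none fell (edgeR quasi-likelihood test, adjusted p under 0.05 over all 11423 genes tested). Of all tested genes 38.1% were called, 19.9% as higher and 18.1% as lower. Fas rose about 10-fold, Tnfrsf1a 2.52-fold and Ripk1 2.05-fold, Tnfsf10 appeared at a trace level, and Casp8 rose by 16.4%. Tnfrsf10b, Fadd and Cflar passed no threshold. The rises of at least 2-fold numbered 4 of 8 members, against 4.03% of tested genes. The CPM of the groups did not overlap for 5 of 8 members, against 48.0% of tested genes. One of these members, Tnfsf10, passed the low-count filter through its treated libraries alone and so had to differ. Of the 7 others, 4 rose, 3 of them by at least 2-fold, and 4 had groups that did not overlap. The median log2 fold change was 0.22 over those 7 members, 0.63 with Tnfsf10, and 0.01 over all genes tested. No set test was made, and the members were chosen with earlier results of these data known.

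**Figure D2:**
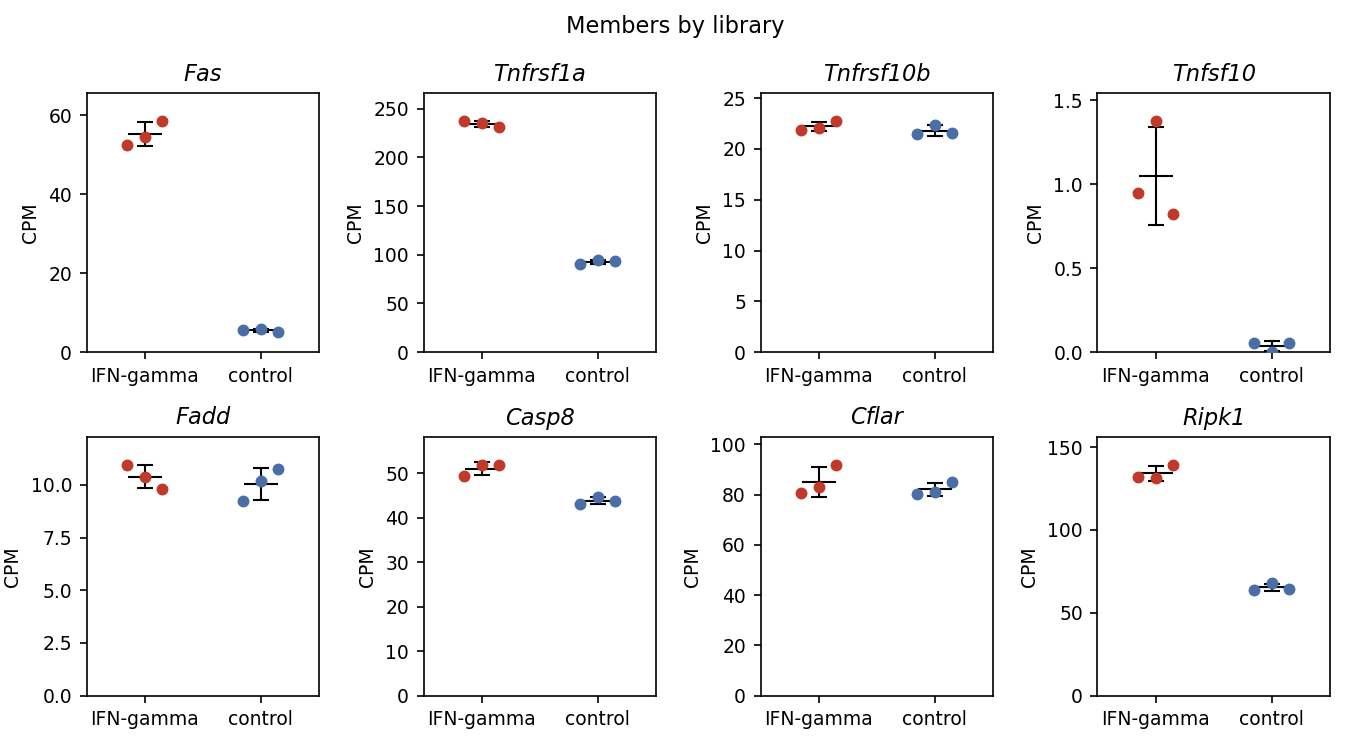
Level of each member in CPM (counts scaled to the effective library size) in each library, interferon-gamma at the left and control at the right of each panel. Points are libraries, bars the mean and SD of 3 libraries, and each y axis starts at 0. The groups are apart for Fas, Tnfrsf1a, Tnfsf10, Casp8 and Ripk1 and overlap for Tnfrsf10b, Fadd and Cflar.

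Among the receptors, Fas, which binds Fas ligand on cytotoxic lymphocytes, had the largest change. Fas (NCBI Gene 14102, chromosome 19, 34290647 to 34327775) measured 52.5, 54.6 and 58.5 CPM in treated libraries and 5.58, 5.91 and 5.06 CPM in controls. The lowest treated library was far above the highest control. The log2 fold change was 3.32 ± 0.079 (SE over the replicates, n = 3 each, adjusted p = 2.66e-18), the 117th largest rise among the 11423 genes. It rested on 943, 991 and 993 counts in treated libraries and 105, 111 and 96 counts in controls. The tables give 9 transcripts for Fas and 1 value for all of them, so membrane-bound and soluble forms are not separated.

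Tnfrsf1a, the main receptor of TNF, was already abundant in the controls. Tnfrsf1a (NCBI Gene 21937, chromosome 6, 125349723 to 125362483) measured 237, 235 and 231 CPM in treated libraries and 90.5, 94.4 and 94.0 CPM in controls. Each treated library stood well above each control, with little spread inside either group. The log2 fold change was 1.33 ± 0.022 (adjusted p = 2.51e-15).

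Tnfrsf10b, the mouse death receptor for TRAIL, passed no threshold. Tnfrsf10b (NCBI Gene 21933, chromosome 14, 69767472 to 69784411) measured 21.9, 22.1 and 22.7 CPM in treated libraries and 21.5, 22.4 and 21.5 CPM in controls. The groups overlapped, with a log2 fold change of 0.03 ± 0.025 (adjusted p = 0.795). The 95% interval of the fold, from limma-voom, ran from 0.92 to 1.13.

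Counted per length, the receptor mRNA pool grew and shifted toward Fas. The summed level of Fas, Tnfrsf1a and Tnfrsf10b was 271 ± 6.78 TPM in treated libraries and 101 ± 5.54 TPM in controls (SD, n = 3 each). Fas made up 24.8%, 25.4% and 27.0% of that sum in treated libraries and 7.93%, 7.96% and 7.14% in controls. Tnfrsf1a made up 69.9% ± 1.2 in treated libraries and 80.2% ± 0.619 in controls, so it stayed the most abundant receptor. The share of Tnfrsf10b was 4.29% ± 0.0717 in treated libraries and 12.2% ± 0.154 in controls, while its own level passed no threshold.

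**Figure D3:**
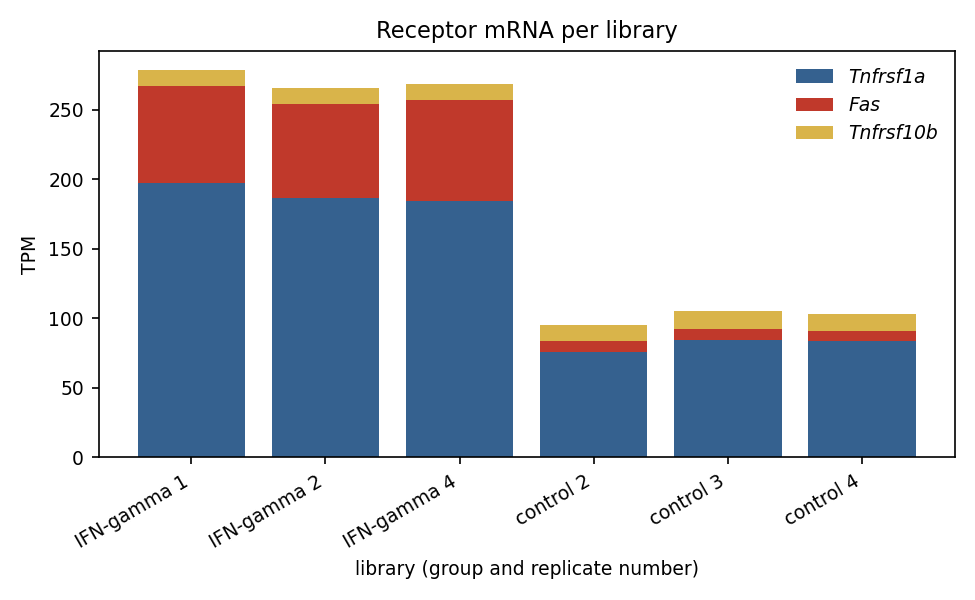
Level of the 3 receptors in TPM in each library, stacked, with the treated libraries at the left. The stacks reach 266 to 279 TPM in treated libraries and 95.1 to 106 TPM in controls, and the Fas layer is the part that grew most in proportion.

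The ratio of Fas to Tnfrsf1a within a library was 0.35, 0.362 and 0.394 in treated libraries and 0.0994, 0.0998 and 0.0883 in controls. Every treated ratio was above every control ratio, a log2 difference of 1.94 (two-sided exact permutation p = 0.1, the smallest that 3 against 3 libraries allow, and 0.1 when adjusted over the 3 ratios tested). The ratio of Tnfrsf10b to Tnfrsf1a was 0.0613 ± 0.0021 in treated libraries and 0.152 ± 0.0031 in controls, a log2 difference of -1.31 with the same exact p. In both ratios the groups did not overlap.

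The ligand Tnfsf10, which encodes TRAIL, was a trace transcript in both groups. Tnfsf10 (NCBI Gene 22035, chromosome 3, 27317077 to 27339665) had 17.1, 25 and 14 estimated counts in treated libraries and 1, 0 and 0.99 in controls. The groups did not overlap, yet the treated level was only 0.34 ± 0.0917 TPM. The depth-scaled ratio of the totals, 56 against 2 counts, was 29.8 (exact 95% binomial interval 7.87 to 252, counting error only).

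Fadd, the adaptor that couples Fas and the TRAIL receptor to caspase-8, passed no threshold. Fadd (NCBI Gene 14082, chromosome 7, 144578323 to 144582441) measured 11.0, 10.4 and 9.83 CPM in treated libraries and 9.25, 10.2 and 10.8 CPM in controls. The libraries of both groups were mixed in order. The log2 fold change was 0.05 ± 0.077 (adjusted p = 0.745), and the 95% interval of the fold ran from 0.896 to 1.2.

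Casp8, the initiator caspase, showed a small rise. Casp8 (NCBI Gene 12370, chromosome 1, 58795233 to 58847503) measured 49.5, 52.0 and 51.8 CPM in treated libraries and 43.1, 44.7 and 43.9 CPM in controls. All treated libraries stood above all controls, with a log2 fold change of 0.22 ± 0.027 (adjusted p = 0.00501). The call was lost on total counts, where the log2 fold change was 0.15 (adjusted p = 0.0511), and the adjusted p ran from 0.0047 to 0.0511 over 15 alternatives.

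Cflar lies next to Casp8 on chromosome 1 and opposes it. Cflar (NCBI Gene 12633, 58711311 to 58758884) measured 80.7, 83.0 and 91.9 CPM in treated libraries and 80.1, 81.1 and 85.0 CPM in controls. The groups overlapped, treated replicate 4 was the highest, and the log2 fold change was 0.05 ± 0.063 (adjusted p = 0.516) with a 95% interval of the fold from 0.952 to 1.13. Its counts were not whole in any library, and the tables give 19 transcripts for it, so the long and short forms of c-FLIP are not separated. The Cflar to Casp8 ratio in TPM was 0.606, 0.588 and 0.673 in treated libraries and 0.711, 0.692 and 0.736 in controls. All treated ratios were below all control ratios, by 0.20 on the log2 scale (log2 difference -0.198, two-sided exact permutation p = 0.1, adjusted p = 0.1 over the 3 ratios).

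Ripk1, the kinase that sits at the branch between NF-kappaB signalling, apoptosis and necroptosis, rose 2.05-fold. Ripk1 (NCBI Gene 19766, chromosome 13, 34002225 to 34035170) measured 132, 132 and 139 CPM in treated libraries and 63.6, 68.0 and 64.5 CPM in controls. The treated libraries were far above the controls, with a log2 fold change of 1.04 ± 0.041 (adjusted p = 1.01e-12).

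**Figure D4:**
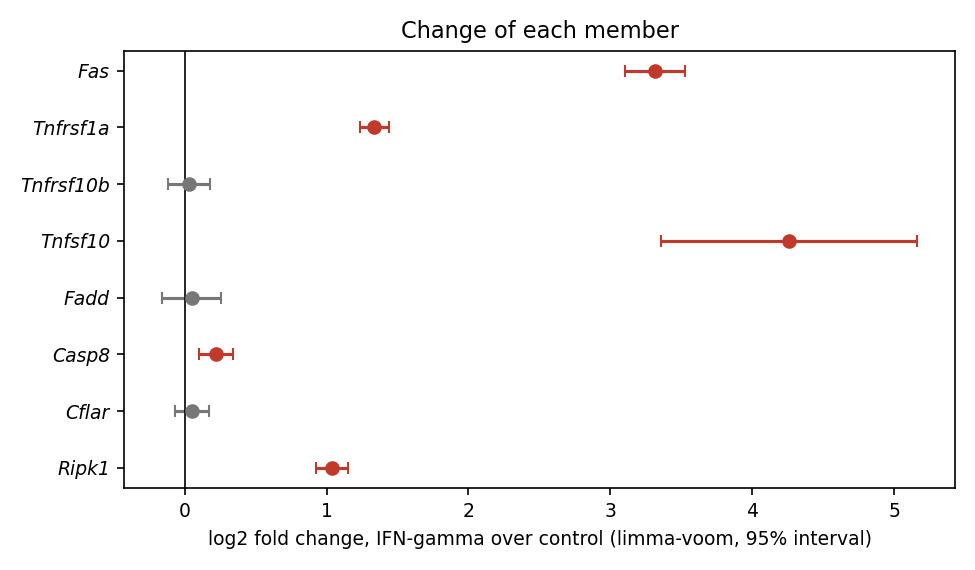
Log2 fold change of each member, interferon-gamma over control, with 95% intervals from limma-voom. Red marks members past the edgeR threshold. The intervals of Tnfrsf10b, Fadd and Cflar include 0, and those of the other members do not.

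Levels per length put the members in a different order in each group. In treated libraries the order was Tnfrsf1a (190 ± 7.05 TPM), Fas (69.8 ± 2.6), Ripk1 (45.4 ± 1.54), Casp8 (33.8 ± 0.03), Cflar (21.1 ± 1.51), Tnfrsf10b (11.6 ± 0.249), Fadd (6.08 ± 0.475) and Tnfsf10, and no neighbours overlapped. In controls the order was Tnfrsf1a (81.2 ± 4.64 TPM), Casp8 (31.3 ± 1.66), Ripk1 (23.9 ± 1.61), Cflar (22.3 ± 1.26), Tnfrsf10b (12.3 ± 0.652), Fas (7.78 ± 0.554), Fadd (6.36 ± 0.681) and Tnfsf10. There the ranges of Ripk1 and Cflar overlapped, and those of no other neighbours did. Fas thus stood in place 6 of 8 in controls and in place 2 of 8 in treated libraries.

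Other receptors and decoys of the family were listed beside the members. Of 9 listed receptors and decoys, 8 had a row and 5 were tested, of which 2 rose and 1 fell. The shares over all tested genes were 19.9% and 18.1%. Eda2r, a death-domain-free receptor of ectodysplasin A2, measured 11.5 ± 0.915 CPM in treated libraries and 3.64 ± 0.327 CPM in controls (log2 1.65, adjusted p = 3.14e-10). The decoy TRAIL receptor Tnfrsf22 had a log2 fold change of -0.29 (adjusted p = 0.0115, and 0.0543 with a replicate block). Tnfrsf1b, the second TNF receptor, chosen after its values were seen, was called although its groups overlapped (log2 0.17, adjusted p = 0.0376). Leaving out treated replicate 1 put its adjusted p at 0.225, leaving out treated replicate 2 at 0.0983, control replicate 3 at 0.262 and control replicate 4 at 0.0546. It was 0.479 with a replicate block, 0.0688 by DESeq2, 0.16 with upper-quartile scaling and 0.243 on total counts, so only 1 of these receptors was called higher in those fits. The number of receptors called lower was 2 without treated replicate 1 or 4 or control replicate 3, and 0 with the block. Of 8 other ligands, 6 had a row. Of these 6 only Tnfsf12, which encodes TWEAK, was abundant enough to test, with a log2 fold change of 0.15 ± 0.098 (adjusted p = 0.167). It ran from 0.06 without control replicate 4 to 0.22 without control replicate 2, past the threshold in neither. Tnf itself, chosen after its values were seen, had 10 counts in all treated libraries together and 6 in all controls, and Fasl was not analysed here.

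Around Tnfrsf1a, all 3 subunits of the linear ubiquitin chain ligase rose. Of 18 adaptors and ubiquitin ligases tested, 7 (38.9%) rose and 3 (16.7%) fell, against 19.9% and 18.1% of all tested genes. Their median log2 fold change was 0.01. Rnf31, the catalytic subunit HOIP, measured 52.3 ± 3.59 CPM in treated libraries and 20.5 ± 1.99 CPM in controls (log2 1.35 ± 0.1, adjusted p = 4.16e-12). Its partner Rbck1 measured 114 ± 8.51 CPM in treated libraries and 65.6 ± 4.98 CPM in controls (log2 0.80 ± 0.09, adjusted p = 2.19e-09). The third subunit Sharpin rose by 0.32 (adjusted p = 0.000182). The ubiquitin ligases Birc2 and Birc3 rose by 0.25 and 0.26, the adaptor Traf2 rose by 0.32, and Traf1 had a log2 fold change of -0.52 (adjusted p = 3.08e-05). Traf3 and Traf5 also fell, both with a log2 fold change of -0.28 (adjusted p = 0.000405 and 0.0173). The number lower was 2 without treated replicate 1 or control replicate 4 and with a replicate block. It was 4 with upper-quartile scaling and on total counts. The call of Birc3 was lost without control replicate 3 (adjusted p = 0.104), with a replicate block (0.124) and on total counts (0.065). Sharpin, Birc2, Birc3, Traf1, Traf2, Traf3, Traf5 and Tradd were picked out after their values were known. Tradd, the adaptor that binds Tnfrsf1a directly, had a log2 fold change of -0.13 (adjusted p = 0.32). It was -0.04 without treated replicate 4, -0.24 without control replicate 3 and -0.26 with a replicate block, past the threshold in none of them.

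The list named brakes on the complex also holds other regulators of it. Of its 19 tested genes 6 (31.6%) were higher and 6 (31.6%) lower, against 19.9% and 18.1% of all tested genes. Its median log2 fold change was 0.06. Without treated replicate 4 the number lower was 3. Tnfaip3, which encodes the deubiquitinase A20 and limits TNF signalling, measured 32.8 ± 0.638 CPM in treated libraries and 22.6 ± 1 CPM in controls (log2 0.53, adjusted p = 1.53e-06). Daxx, first described as a Fas-binding protein, rose by 0.61 (adjusted p = 1.94e-08). Faim2, an inhibitor of Fas-induced death known from neurons, fell from a low level, at 0.77 ± 0.0963 CPM in treated libraries and 1.61 ± 0.246 CPM in controls (log2 -1.05, adjusted p = 0.00238).

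Downstream of caspase-8, 7 of 13 tested genes of the executioner arm rose (53.8%) and 1 fell (7.69%). The shares over all tested genes were 19.9% and 18.1%. The arm had a median log2 fold change of 0.18. Without treated replicate 4 or control replicate 2 none of its genes was lower. The pore protein Bak1 measured 298 ± 10.7 CPM in treated libraries and 148 ± 6.37 CPM in controls (log2 1.01 ± 0.047, adjusted p = 1.07e-12). Among genes picked out after their values were known, Bid, which caspase-8 cleaves to reach the mitochondrion, rose by 0.28 (adjusted p = 0.000452) and Casp6 by 0.54.

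In the necroptosis arm, which Ripk1 enters when caspase-8 is blocked, 2 of 3 tested genes rose and 1 fell. The shares over all tested genes were 19.9% and 18.1%. Mlkl, the protein that breaches the membrane, measured 205 ± 5.76 CPM in treated libraries and 49.5 ± 2.34 CPM in controls (log2 2.05 ± 0.045, adjusted p = 7.12e-18). Zbp1, a nucleic acid sensor that engages Ripk3, measured 76.7 ± 2.16 CPM in treated libraries and 0.389 ± 0.109 CPM in controls (log2 7.60). The control values rested on 8, 5 and 9 counts. Zbp1 passed the low-count filter through its treated libraries alone, so its rise is a description, and 1 of the 2 other tested genes rose. Ripk3, the kinase that links Ripk1 to Mlkl, had 0 counts in every treated library and 1 count in every control, at the floor in both groups. Pgam5, a mitochondrial phosphatase, was the gene that fell (log2 -0.26, adjusted p = 0.000356). Ripk3 and Pgam5 were picked out after their values were known.

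Since Fas and Tnfrsf10b are known p53 targets, genes of that pathway were listed as well. Of 11 tested, 3 (27.3%) rose and 5 (45.5%) fell, against 19.9% and 18.1% of all tested genes. Their median log2 fold change was -0.14. The list holds Trp53 itself, which was among those that fell (log2 -0.14, adjusted p = 0.038). The number higher was 1 without treated replicate 1 or 2 or control replicate 2, with DESeq2 and on total counts. Cdkn1a, the inhibitor of cyclin-dependent kinases, rose by 0.52 (adjusted p = 1.3e-05), and Aen, a nuclease induced by p53, had a log2 fold change of -0.55 (adjusted p = 2.36e-07). Mdm2, the negative regulator of p53, chosen after its values were seen, was at 58.5 ± 2.66 CPM in treated libraries and 56.0 ± 1.62 CPM in controls (adjusted p = 0.411).

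**Figure D5:**
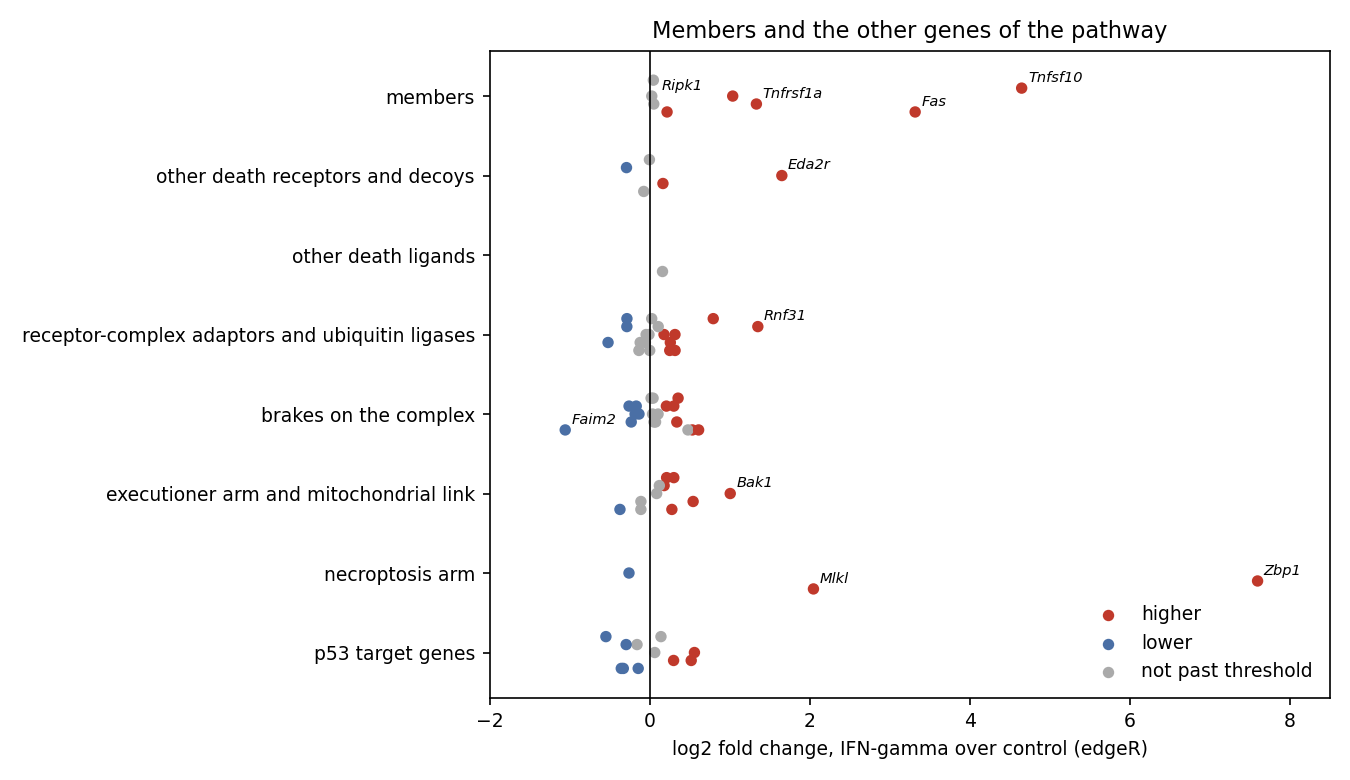
Log2 fold change of the tested genes, interferon-gamma over control, with the 8 members in the top row and the other lists of the pathway below, apart from genes not reported here. Red points rose, blue points fell and grey points passed no threshold. Most points lie within 1 of 0, and the names mark genes changed at least 2-fold.

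By likeness over the 6 libraries (Pearson's r of log2 CPM), the genes closest to Fas were Lap3 (0.999965), Zc3hav1 (0.999962) and Casp4 (0.999892), which rose by 1.43, 0.66 and 3.47 on the log2 scale. Those closest to Tnfrsf1a were Tceal9 (0.999788), Ifit3b (0.999778) and Nod1 (0.999773). The 6 libraries form 2 separate groups and share their scaling, so this measure mainly records a clean difference between the groups. It exceeded 0.99 for 382 genes with Fas and for 419 genes with Tnfrsf1a.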

How the data were processed

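Per the labels' protocols, RNA of the 6 samples was read on a DNBSEQ instrument. Per the submitters' processing notes the builds were mm10 and GRCm38.p6 and the tools HISAT and HISAT2, with no roles stated, and no source used here names the counter. The authors deposited estimated counts per gene, 6.8% to 7.37% of them not whole numbers in each library, which can arise where similar genes share reads, and they were rounded here. TPM values, deposited beside them per the file headers, gave levels between genes, ratios and shares. The deposited FPKM values served as an alternative for ratios. The labels do not say that replicates were separate cultures, so p-values measure the spread between these samples, which may be technical.

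Genes were filtered with filterByExpr (minimum count 10) and scaled by TMM factors (0.972 to 0.982 in treated libraries, 1.02 to 1.03 in controls). They were compared by the quasi-likelihood test of edgeR 4.0.16 (R 4.3.3, robust=TRUE). The fit was checked on simulated data with far fewer changed genes than were called here, balanced in direction. That check does not cover the dependence of the calls on scaling. P-values were adjusted by Benjamini-Hochberg over all 11423 genes, with a threshold of 0.05. CPM are per effective library size. Standard errors come from replicates' log2 CPM (prior count 2) and may understate the error at low counts. Intervals of folds are from limma 3.58.1 (voom), added after the data were examined, as was the exact binomial interval. Alternatives were DESeq2 1.42.0, limma-voom, other scalings and filters, robust=FALSE, a replicate block and each library left out.

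Members and lists were chosen with earlier results of these data known. The naming rule took all members, the genes of each list past the threshold and changed at least 2-fold, or else the list's 2 genes of smallest adjusted p, and the 3 genes most like Fas and most like Tnfrsf1a. Some listed genes are counted but not reported here by name. Start-site sequences are from RefSeq (GRCm38.p6, a build named in the processing notes), positions from RefSeq and exons from GENCODE M21. Tables and figures were made in Python 3.11.15 with scipy 1.17.1, numpy 2.4.6, matplotlib 3.10.9 and pandas 2.3.3.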

Additional observations from a re-analysis of the deposited data

How the results depend on the processing

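The calls of Fas, Tnfrsf1a and Ripk1 held in every alternative run. Tnfsf10 was called in every run that tested it, all but the filter of at least 1 CPM in 3 samples. It passed the main low-count filter through its treated libraries alone, so its calls are only a description. Fas ran from 3.25 to 3.41 on the log2 scale and Tnfsf10 from 4.13 to 4.99. Casp8 lost its call on total counts (log2 0.15, adjusted p = 0.0511). For the 3 members past no threshold the sign depended on scaling: with upper-quartile scaling Tnfrsf10b was at -0.026, Fadd at -0.0057 and Cflar at -0.0011, and on total counts at -0.044, -0.024 and -0.020. With each library left out in turn, Fadd ran from -0.0096 to 0.088 and Cflar from -0.0047 to 0.079. Mdm2, outside the members, was at -0.0072 on total counts. These scalings moved the median of all tested genes to -0.04 (upper-quartile) and -0.06 (total counts), from 0.01, and the share of calls that were higher to 38.6% and 34.5%, from 52.4%. On total counts 1644 genes rose and 3124 fell, against 2278 and 2069. The Fas to Tnfrsf1a difference was 1.80 with log2(TPM + 1).

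Among the lists, the other receptors had 1 higher in place of 2 under DESeq2, upper-quartile scaling, total counts and the block, and 1 to 2 with a library left out. They had 2 lower with no low-count filter, 0 with the block, and 1 to 2 with a library left out. The executioner arm had 0 lower under DESeq2, 2 under upper-quartile scaling and on total counts, and 0 to 1 with a library left out. The list named brakes had 3 to 5 lower with a library left out. The p53 list had 1 higher under DESeq2 and on total counts, and 1 to 3 with a library left out.

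With the replicate number as a block, 2133 genes rose and 1793 fell, 5 of the 8 members among those that rose. Only the numbers 2 and 4 are shared, and the deviations of same-numbered libraries from their group means correlated at 0.128 and -0.0899 across genes, so the numbers were not taken to pair the libraries. The cause of the shifts in calls was not tested. Low counts limit Tnfsf10, Tnf and Ripk3.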
